A study of Rattus norvegicus with 6 samples.

Results

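Collagens and the enzymes that process them were examined in RNA sequencing libraries of rat dorsal root ganglia (DRG), which hold the cell bodies of the sensory neurons. The genes were chosen by symbol: every collagen chain gene, the lysyl hydroxylases Plod1 to Plod3, the prolyl hydroxylase subunits P4ha1 to P4ha3, the collagen chaperone Serpinh1, the propeptide processing genes Bmp1, Pcolce and PCOLCE2, and the cross-linking enzymes of the Lox family, where a gene was listed in at least 3 libraries. This gave 42 genes, 27 of them collagen chains and 15 processing genes, of 14346 genes listed in at least 1 library. The first group held 3 libraries of rats 7 days after partial sciatic nerve ligation (pSNL), in which a part of the nerve is tied off, and the second held 3 libraries of rats 7 days after a sham operation. Both groups were labelled dorsal root ganglia, and the labels name no strain, sex or age and do not say whether ganglia were pooled. Whether the libraries came from separate rats is not stated in the labels, so p-values here rest on library-to-library spread, some of which may be technical. The gene table held 59 symbols that fit the naming rule, and the other 17 are not analysed here.

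Collagen chains carry repeats of glycine and 2 further residues and wind into a helix of 3 chains. In the endoplasmic reticulum prolines and lysines are hydroxylated and Serpinh1 (Hsp47) holds the helix. Outside the cell the propeptides of fibril-forming chains are cut by Bmp1, helped by the Pcolce proteins, and Lox enzymes cross-link the fibrils. In ganglia and nerves, collagens are known from the basement membranes around glia and vessels and from the fibrils of the epineurium, perineurium and endoneurium, made by fibroblasts, perineurial cells and Schwann cells.

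The libraries held 4339565 to 4416121 estimated counts in pSNL and 4310643 to 4412391 in sham, so 1 CPM (a count scaled to library size) is a little over 4 counts. Levels below are CPM on library sizes scaled by TMM factors unless they are given as FPKM, which is also divided by gene length and is used to compare genes. Neuronal genes were high in every library, with a summed level of 46269 to 50607 CPM in pSNL and 47969 to 60138 CPM in sham over 12 listed genes. Sham replicate 3 stood apart: 9 central glia genes summed to 3192 CPM there, against 648 to 758 CPM in pSNL and 766 and 798 CPM in the other sham libraries. Skeletal muscle genes (13 listed) summed to 1421 CPM in pSNL replicate 3 and 813 CPM in sham replicate 3. The remaining libraries were at 163 to 247 CPM, most of it Pvalb (186 and 146 CPM in pSNL, 196 and 231 CPM in sham). Pvalb did not stand out in replicate 3 (213 CPM in pSNL, 194 CPM in sham). Ckm was at 161 CPM in pSNL replicate 3 and 85.5 CPM in sham replicate 3, against 0.69 to 2.75 CPM in the remaining libraries. Without the replicate 3 library of both groups the median log2 fold change of the 36 collagen and processing genes then tested was 0.64, and 4 of them passed the threshold (Col5a3, Col11a1, Col27a1 and PCOLCE2).

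Of the 42 genes, 34 had a higher and 8 a lower mean CPM in pSNL. All pSNL libraries lay above all sham libraries for 25 genes and below them for 2, and the groups overlapped for 15. The filter on low counts passed 35 genes, of which 4 (Col7a1, Col9a1, Col26a1 and Loxl2) were over it in every pSNL library but not in every sham library. The tests of these 4 thus depend in part on the group where they are higher. In the fit over all 11091 genes that passed, 1 of the 35 rose at an adjusted p under 0.05 (edgeR quasi-likelihood test, Benjamini-Hochberg over all tested genes), PCOLCE2, and none fell; 0.46% of all tested genes passed, and 0.442% rose. At an unadjusted p under 0.05, 21 of the 35 were higher, against 9.41% of all tested genes, and none was lower, against 6.07%. A fold change above 0 was found for 28 of the 35, against 49.4% of tested genes. The libraries separated upward for 23 of the 35, against 11.1% of tested genes, and downward for 2, against 10.4%. The median log2 fold change of the 35 was 0.59, beside -0.0024 over all tested genes. DESeq2, a second count model, called 10 of the 37 genes to which it gave an adjusted p, all higher, where it called 2.17% of all genes higher. In bulk tissue more cells of a type and more RNA per cell cannot be told apart.

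**Figure D1:**
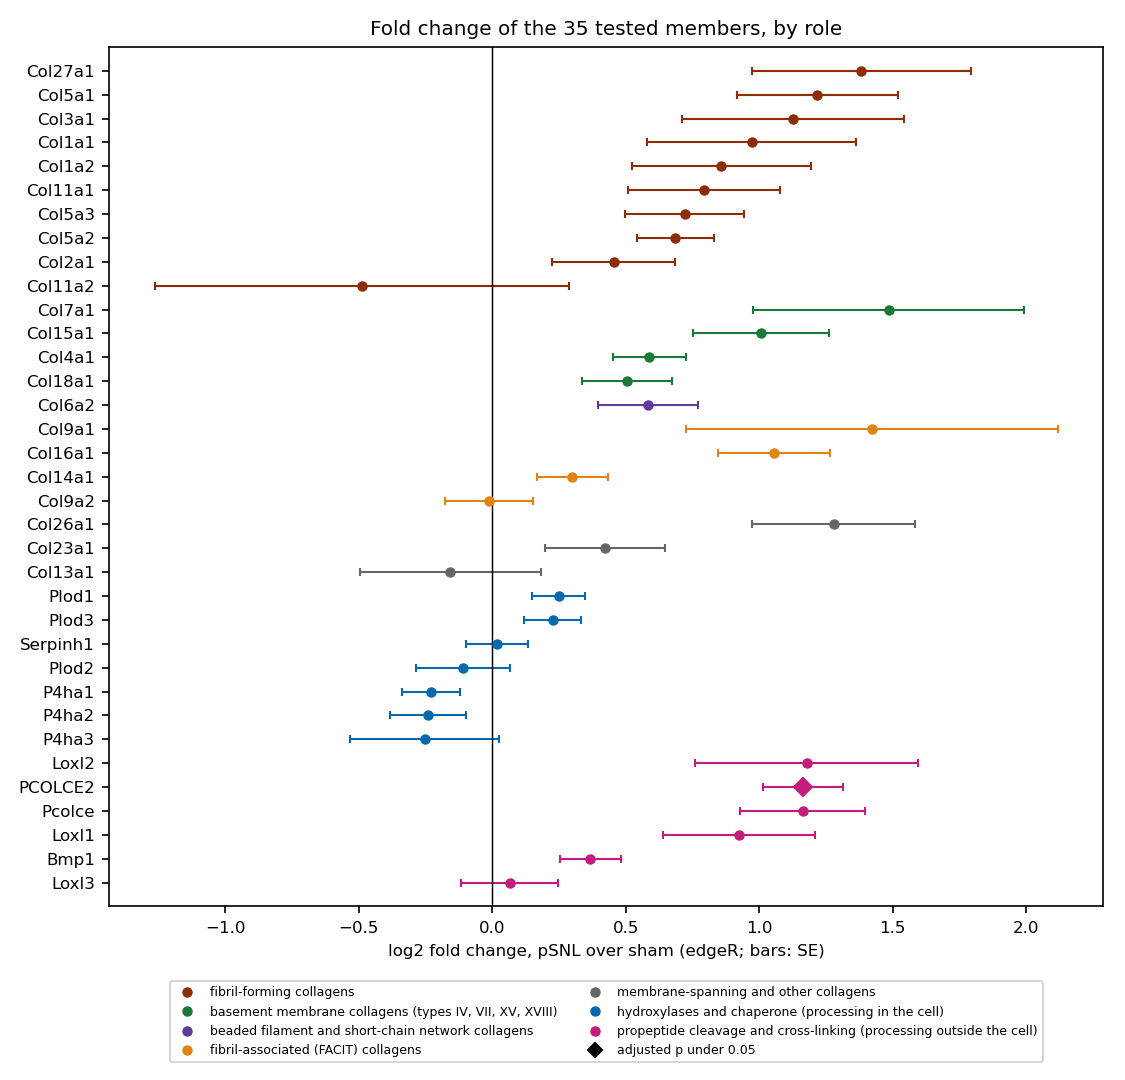
The x axis is the log2 fold change of pSNL over sham with its standard error, the y axis lists the 35 tested genes coloured by role, and a diamond marks an adjusted p under 0.05. PCOLCE2 alone carries the diamond, collagen chains run from -0.49 to 1.48, and the enzymes and chaperone inside the cell run from -0.25 to 0.25.

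Of the 6 tested genes that act on procollagen outside the cell, 1 rose, against 0.442% of all tested genes. Fold changes were above 0 for all 6, against 49.4% of all tested genes, and the median of their log2 values was 1.04. Loxl2, among these 6, was over the filter on low counts in 3 pSNL and 2 sham libraries. The test of Loxl2 thus depends in part on the group where it is higher. PCOLCE2 (gene ID 684050), an enhancer of procollagen C-proteinase, was at 35.9, 41.6 and 38.8 CPM in pSNL replicates 1 to 3, against 20.4, 15.8 and 15.6 CPM in sham replicates 1 to 3. The lowest pSNL library was well above the highest sham library. PCOLCE2 rose 2.24-fold, a log2 fold change and SE of 1.16 ± 0.15 (edgeR, adjusted p = 0.0172). With 1 library left out the call held in 4 of 6 fits and without the replicate 3 library of both groups (edgeR adjusted p = 0.0449), and was lost without pSNL replicate 2 or without sham replicate 2 (edgeR adjusted p = 0.0774 and 0.13), with log2 fold changes of 1.10 in each.

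Its paralog Pcolce (gene ID 29569), the first described enhancer of the same cleavage, was at 56.3, 82.3 and 73.2 CPM in pSNL, against 43.1, 27.1 and 24.4 CPM in sham. Its groups did not overlap either, and sham replicate 1 came nearest to pSNL. The log2 fold change was 1.16 ± 0.23 (edgeR adjusted p = 0.0823; DESeq2 adjusted p = 0.000105), the same size as for PCOLCE2 with a wider spread. Pcolce passed in edgeR without pSNL replicate 1 (adjusted p = 0.0483) or without sham replicate 1 (adjusted p = 0.0313). Per length, PCOLCE2 stood at 0.46 ± 0.06 of the Pcolce FPKM in pSNL and 0.47 ± 0.07 in sham (SD, n = 3 each), and the libraries of both groups overlapped in this ratio.

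The stretches of 250 bases before the start of these genes are shown because they are the members with the smallest p outside the cell, and those of Col5a2 and Col16a1 because these are the collagen chains with the smallest p; capitals mark the GC box, GGGCGG or its reverse complement. The sequences are RefSeq's on GRCr8, written 5′ to 3′ on the gene's strand, at chr8:105072836-105073085 (+) for PCOLCE2, chr12:24720722-24720971 (+) for Pcolce, chr9:55090152-55090401 (-) for Col5a2 and chr5:147672846-147673095 (+) for Col16a1.
PCOLCE2: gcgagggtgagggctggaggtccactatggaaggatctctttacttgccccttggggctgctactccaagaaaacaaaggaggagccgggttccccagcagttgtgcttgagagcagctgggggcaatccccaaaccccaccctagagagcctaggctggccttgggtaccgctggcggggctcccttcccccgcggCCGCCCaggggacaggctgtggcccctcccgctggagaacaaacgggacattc
Pcolce: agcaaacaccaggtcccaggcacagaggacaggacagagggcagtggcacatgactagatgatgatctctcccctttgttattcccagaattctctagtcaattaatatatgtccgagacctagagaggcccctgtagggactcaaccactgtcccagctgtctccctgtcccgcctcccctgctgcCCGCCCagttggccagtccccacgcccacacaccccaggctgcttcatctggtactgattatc
Col5a2: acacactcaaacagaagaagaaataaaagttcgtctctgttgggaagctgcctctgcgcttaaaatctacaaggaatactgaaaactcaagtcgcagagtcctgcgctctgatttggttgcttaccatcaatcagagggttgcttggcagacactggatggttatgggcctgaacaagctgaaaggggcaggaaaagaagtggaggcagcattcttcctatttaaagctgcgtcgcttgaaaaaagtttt
Col16a1: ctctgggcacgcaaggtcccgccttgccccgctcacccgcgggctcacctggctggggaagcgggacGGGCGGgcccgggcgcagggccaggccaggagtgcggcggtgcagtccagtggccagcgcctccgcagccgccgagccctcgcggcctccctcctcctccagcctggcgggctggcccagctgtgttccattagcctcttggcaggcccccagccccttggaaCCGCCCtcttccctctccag
The GC box of PCOLCE2 begins 53 bases and that of Pcolce 63 bases before the start, both on the strand opposite to the gene. Col16a1 holds 2, and Col5a2, whose stretch has 44.8% G and C against 74.8% in Col16a1, holds none. Promoters were found for 34 of the 42 genes. A GC box on either strand was in 21 of these 34, against 30.5% of all promoters in the table and 59.6% of the promoters of tested genes. The CCAAT box (CCAAT, either strand) was in 7 of 34, against 34.0% and 35.1%, and the TATA box (TATAAA, either strand) in 3 of 34, against 12.9% and 6.27%. A GC box and a CCAAT box can share letters at their ends, and each was counted without regard to the other. A match is a description of the letters only.

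Bmp1, the procollagen C-proteinase itself, was at 69.7, 82.8 and 66.1 CPM in pSNL, against 56.2, 52.3 and 60.9 CPM in sham. The groups did not overlap but lay close, with a log2 fold change of 0.37 ± 0.11 (edgeR adjusted p = 0.167). Loxl1, a cross-linking enzyme best known from elastic fibres, was at 12.0, 17.8 and 10.3 CPM in pSNL, against 9.17, 6.20 and 5.75 CPM in sham (log2 fold change 0.92 ± 0.28, edgeR adjusted p = 0.16). Loxl2 had a log2 fold change of 1.18 ± 0.42 and Loxl3 of 0.07 ± 0.18 (edgeR adjusted p = 0.217 and 0.901). Lox itself was too low to test, with 2, 22 and 7 counts in pSNL and 9, 7 and 4 in sham, and Loxl4 had at most 6 counts in any library. Summed over the 8 genes of cleavage and cross-linking, the level was 201, 257 and 214 CPM in pSNL, against 151, 125 and 125 CPM in sham.

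Fibril-forming collagens made up most of the collagen counts. None of the 10 was called by edgeR. At a p under 0.05 before adjustment 7 were higher, against 9.41% of all tested genes. DESeq2 called 4, where it called 2.17% of all genes higher. Fold changes were above 0 for 9 of the 10, against 49.4% of all tested genes, and the median log2 value was 0.83. Col1a1 and Col1a2 encode the chains of type I collagen, the main fibril of connective tissue. Col1a1 (gene ID 29393) was at 1532, 2610 and 1820 CPM in pSNL, against 1440, 1008 and 592 CPM in sham. Sham replicate 1 came close to pSNL replicate 1, and the sham libraries alone differed 2.43-fold. Its log2 fold change was 0.97 ± 0.39 (edgeR adjusted p = 0.339). Col1a2 (gene ID 84352) was at 998, 1640 and 1127 CPM in pSNL, against 946, 686 and 444 CPM in sham (log2 fold change 0.86 ± 0.34, edgeR adjusted p = 0.319), in the same order of libraries. Col3a1, the type III chain of loose and vascular tissue, was picked out after its values were seen, as the next most abundant gene. It was at 1055, 1865 and 1183 CPM in pSNL, against 918, 588 and 374 CPM in sham (log2 fold change 1.13 ± 0.42, edgeR adjusted p = 0.31). All 3 genes were highest in pSNL replicate 2 and lowest in sham replicate 3.

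The chains of type I collagen were set against each other per length. The FPKM of Col1a1 divided by that of Col1a2 was 1.17, 1.22 and 1.23 in pSNL replicates 1 to 3, against 1.16, 1.12 and 1.02 in sham replicates 1 to 3. The ratios spanned a narrower range than the level of Col1a1 itself, which was at 262, 440 and 303 FPKM in pSNL, against 241, 168 and 101 FPKM in sham. The ratio did not overlap between groups and was not tested. The Col3a1 to Col1a1 ratio, like that of the Pcolce paralogs taken after the values were seen, was 0.84, 0.87 and 0.79 in pSNL, against 0.78, 0.71 and 0.77 in sham.

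Type V collagen starts and limits the growth of type I fibrils. Col5a2 (gene ID 85250) was at 157, 203 and 152 CPM in pSNL, against 124, 105 and 89.9 CPM in sham. No library overlapped, and the log2 fold change of 0.69 ± 0.15 was under that of Col5a1 but had the smaller error (edgeR adjusted p = 0.0801; DESeq2 adjusted p = 0.00176). Col5a1 (gene ID 85490) was at 127, 171 and 103 CPM in pSNL, against 80.0, 52.3 and 40.2 CPM in sham (log2 fold change 1.22 ± 0.30; edgeR adjusted p = 0.149; DESeq2 adjusted p = 4.63e-05). The FPKM of Col5a1 relative to Col5a2 was 0.89, 0.93 and 0.74 in pSNL, against 0.71, 0.55 and 0.49 in sham, so this ratio did not overlap between groups; it was not tested. Col5a3, a further type V chain, was the most abundant of them per length and was also singled out after its values were seen. It was at 149, 151 and 103 FPKM in pSNL, against 90.6, 93.4 and 59.0 FPKM in sham (log2 fold change on counts 0.72 ± 0.22; edgeR adjusted p = 0.206). Col5a3 passed edgeR's threshold when both replicate 3 libraries were left out and DESeq2's with all 6 (adjusted p = 0.00356). Rat Schwann cells are known to make type V collagen, and the 11 listed Schwann cell markers summed to 22449, 26668 and 34671 CPM in pSNL, against 23230, 20460 and 29034 CPM in sham, an order of libraries different from that of Col5a3.

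Col27a1, a fibril-forming collagen known from cartilage, was at 22.2, 27.3 and 8.03 CPM in pSNL, against 7.34, 7.34 and 7.35 CPM in sham. The higher level came from pSNL replicates 1 and 2, and pSNL replicate 3 was barely above sham. Its log2 fold change was 1.38 ± 0.41 (edgeR adjusted p = 0.173), and 1.75 without pSNL replicate 3, where it passed (edgeR adjusted p = 0.0134). Col2a1, the main cartilage collagen, was present at 248, 235 and 219 CPM in pSNL, against 212, 190 and 110 CPM in sham (log2 fold change 0.46 ± 0.23, edgeR adjusted p = 0.406). Of 13 listed cartilage and bone genes 6 were tested and edgeR called none (1 was under 0.05 before adjustment, and DESeq2 called none). Their summed level was 299 to 400 CPM in pSNL and 250 to 309 CPM in sham, most of it from Cnmd (chondromodulin). Cnmd, the gene under 0.05, was at 211, 255 and 322 CPM in pSNL, against 224, 200 and 175 CPM in sham. Its log2 fold change was 0.39 ± 0.16 (edgeR adjusted p = 0.279), and that of Runx2 was 0.65 ± 0.35 (edgeR adjusted p = 0.412). These 2 had fold changes above 0 and the other 4 tested had fold changes below 0. Of the other cartilage genes in the list, Comp was at 12.8 to 18.3 CPM in pSNL and 14.2 to 18.1 CPM in sham, and Hapln1 at 8.26 to 12.5 CPM in pSNL and 9.42 to 12.8 CPM in sham. Acan was at 0.23 to 1.14 CPM in pSNL and 0.23 to 4.83 CPM in sham, and Matn1 and Matn3 were at 0 in all but 1 library each. The part of cartilage or bone in the collagen levels was not tested. Col11a1, which forms mixed fibrils with type II, was at 40.6, 58.7 and 30.7 CPM in pSNL, against 20.6, 20.7 and 33.8 CPM in sham, with sham replicate 3 inside the pSNL range (edgeR adjusted p = 0.253). Its partner chain Col11a2, which was also picked after its values were seen, was at 19.5, 26.6 and 24.1 CPM in pSNL, against 16.0, 12.2 and 70.3 CPM in sham. The high value lay in sham replicate 3, the library with the high central glia genes, and the part of those genes in it was not tested.

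**Figure D2:**
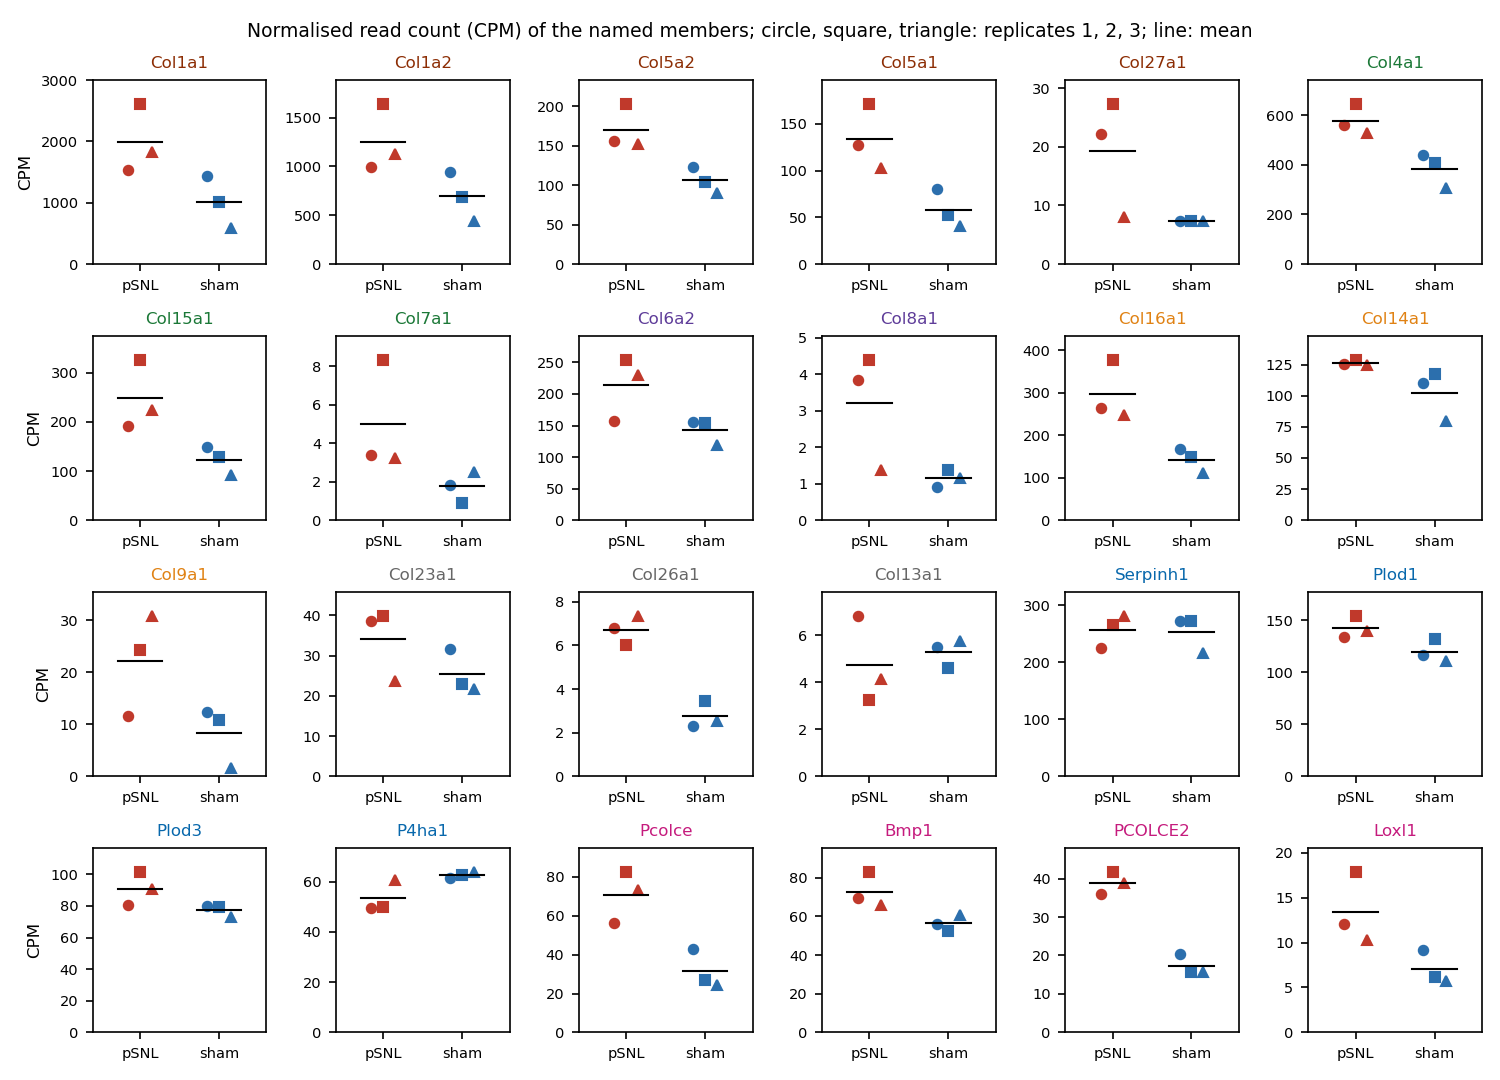
Each panel gives 1 gene, with CPM on the y axis from 0, pSNL libraries left and sham libraries right, and a line at each mean; title colours mark the role as in the plot of fold changes. PCOLCE2, Col16a1 and Col26a1 show a clear gap between groups, Col1a1 and Col1a2 a sham replicate 1 close to pSNL replicate 1, and P4ha1 lower values in pSNL (49.5 to 60.5 CPM) than in sham (61.4 to 63.7 CPM). Col26a1 was over the filter on low counts in every pSNL library but not in every sham library.

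Among basement membrane collagens, Col4a1 (gene ID 290905), a chain of the type IV network of every basement membrane, was at 562, 645 and 527 CPM in pSNL, against 440, 407 and 307 CPM in sham. Its groups did not overlap, and its log2 fold change was 0.59 ± 0.14 (edgeR adjusted p = 0.0891; DESeq2 adjusted p = 0.00202). Col15a1, a collagen that ties basement membranes to fibrils, was at 193, 325 and 225 CPM in pSNL, against 149, 129 and 91.9 CPM in sham (log2 fold change 1.01 ± 0.25; edgeR adjusted p = 0.148; DESeq2 adjusted p = 9.2e-05). Col7a1, the anchoring fibril collagen of epithelia, was low, with 15, 36 and 14 counts in pSNL and 8, 4 and 11 counts in sham (edgeR adjusted p = 0.206). It was over the filter on low counts in all 3 pSNL libraries and in 1 sham library, so its test depends in part on the group where it is higher. Col18a1, the source of endostatin, had a log2 fold change of 0.50 ± 0.17 (edgeR adjusted p = 0.211). Col4a3 and Col4a4, whose products form the type IV network of the kidney glomerulus, had at most 3 counts in a library and were not tested. For all 4 tested genes of this role the pSNL libraries lay above the sham libraries, against 11.1% of all tested genes. By edgeR none of the 4 passed at the adjusted threshold. All 4 were higher at a p under 0.05 before adjustment, against 9.41% of all tested genes. In DESeq2 2 passed, where it called 2.17% of all genes higher.

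Of the beaded filament and short-chain collagens only Col6a2 was tested. Col6a2, a chain of the type VI microfibrils around cells, was at 158, 254 and 230 CPM in pSNL, against 155, 154 and 119 CPM in sham. It lay near sham in pSNL replicate 1 and above it in the others. Its log2 fold change was 0.58 ± 0.19 (edgeR adjusted p = 0.207), and it passed without pSNL replicate 1 (edgeR adjusted p = 0.0212). Col8a1, a short-chain collagen of vessel walls, had 17, 19 and 6 counts in pSNL and 4, 6 and 5 counts in sham, and Col6a4 had at most 6 counts in a library.

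The fibril-associated collagens sit on the surface of fibrils, and 3 of the 4 had a positive fold change, against 49.4% of all tested genes. Col16a1 (gene ID 366474) was at 263, 377 and 249 CPM in pSNL, against 168, 150 and 110 CPM in sham. The gap between the groups was wide, and the log2 fold change was 1.05 ± 0.21 (edgeR adjusted p = 0.0861; DESeq2 adjusted p = 2.07e-06). Col14a1, a fibril-associated collagen of dense tissue, was at 125, 129 and 125 CPM in pSNL, against 110, 117 and 79.7 CPM in sham (log2 fold change 0.30 ± 0.13, edgeR adjusted p = 0.319). Col9a1, a partner of type II fibrils in cartilage, was at 11.6, 24.3 and 30.7 CPM in pSNL, against 12.4, 10.8 and 1.61 CPM in sham, where sham replicate 3 was lowest and sham replicate 1 exceeded pSNL replicate 1 (edgeR adjusted p = 0.409). Col9a1 was over the filter on low counts in 3 pSNL and 2 sham libraries. The test of Col9a1 thus depends in part on the group where it is higher. The other type IX chain measured, Col9a2, had a log2 fold change of -0.01 ± 0.16 (edgeR adjusted p = 0.979).

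Of the membrane-spanning and other collagens, Col26a1 was at 6.81, 6.01 and 7.34 CPM in pSNL, against 2.29, 3.44 and 2.53 CPM in sham. These are 30, 26 and 32 counts against 10, 15 and 11 counts, without overlap, and the log2 fold change was 1.28 ± 0.31 (edgeR adjusted p = 0.0891; DESeq2 adjusted p = 0.163). Col26a1 was over the filter on low counts in all 3 pSNL and in 2 sham libraries, so its test depends in part on the group where it is higher. The membrane collagen Col23a1 was at 38.6, 39.8 and 23.6 CPM in pSNL, against 31.6, 23.0 and 21.6 CPM in sham, and the groups overlapped (edgeR adjusted p = 0.412). Col13a1, a membrane collagen of cell contacts, was at 6.81, 3.24 and 4.13 CPM in pSNL, against 5.50, 4.59 and 5.75 CPM in sham (edgeR adjusted p = 0.866). Col17a1, of epithelial hemidesmosomes, had 2, 14 and 1 counts in pSNL and 2, 0 and 1 counts in sham and was not tested.

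The enzymes and chaperone that act inside the cell had smaller fold changes. None of the 7 was called by edgeR or DESeq2 (1 was under 0.05 before adjustment in edgeR, Plod1), 3 had a positive and 4 a negative fold change, and their median log2 fold change was -0.11. Serpinh1 (gene ID 29345) was at 225, 265 and 280 CPM in pSNL, against 272, 272 and 216 CPM in sham. The groups overlapped, with a log2 fold change of 0.02 ± 0.12 (edgeR adjusted p = 0.959), and sham replicate 3 was again lowest. P4ha1, a catalytic subunit of prolyl 4-hydroxylase, was at 49.5, 49.9 and 60.5 CPM in pSNL, against 61.4, 62.4 and 63.7 CPM in sham. All pSNL libraries were lower, although pSNL replicate 3 only just, and the log2 fold change was -0.23 ± 0.11 (edgeR adjusted p = 0.351). Its isoform P4ha2 was at 18.2, 18.0 and 17.2 CPM in pSNL, against 20.2, 21.1 and 21.8 CPM in sham (edgeR adjusted p = 0.444), the only other gene to lie lower in each pSNL library. P4ha3 had a log2 fold change of -0.25 ± 0.28 (edgeR adjusted p = 0.709).

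Plod1, a lysyl hydroxylase of helical lysines, was at 133, 154 and 139 CPM in pSNL, against 116, 132 and 111 CPM in sham (log2 fold change 0.25 ± 0.10, edgeR adjusted p = 0.271). Plod3, which also adds sugars to hydroxylysine, was at 80.8, 101 and 90.6 CPM in pSNL, against 80.0, 79.6 and 73.3 CPM in sham (edgeR adjusted p = 0.345). Plod2, which hydroxylates lysines in the telopeptides, had a log2 fold change of -0.11 ± 0.18 (edgeR adjusted p = 0.814). Summed over the 7 genes, the level was 547, 623 and 619 CPM in pSNL, against 590, 613 and 517 CPM in sham, so the groups overlapped. The summed level of the 27 collagen chains over the same libraries was 6618, 9800 and 6887 CPM in pSNL, against 5529, 4393 and 2983 CPM in sham, with no overlap. Whether these 2 sums changed differently was not tested.

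**Figure D3:**
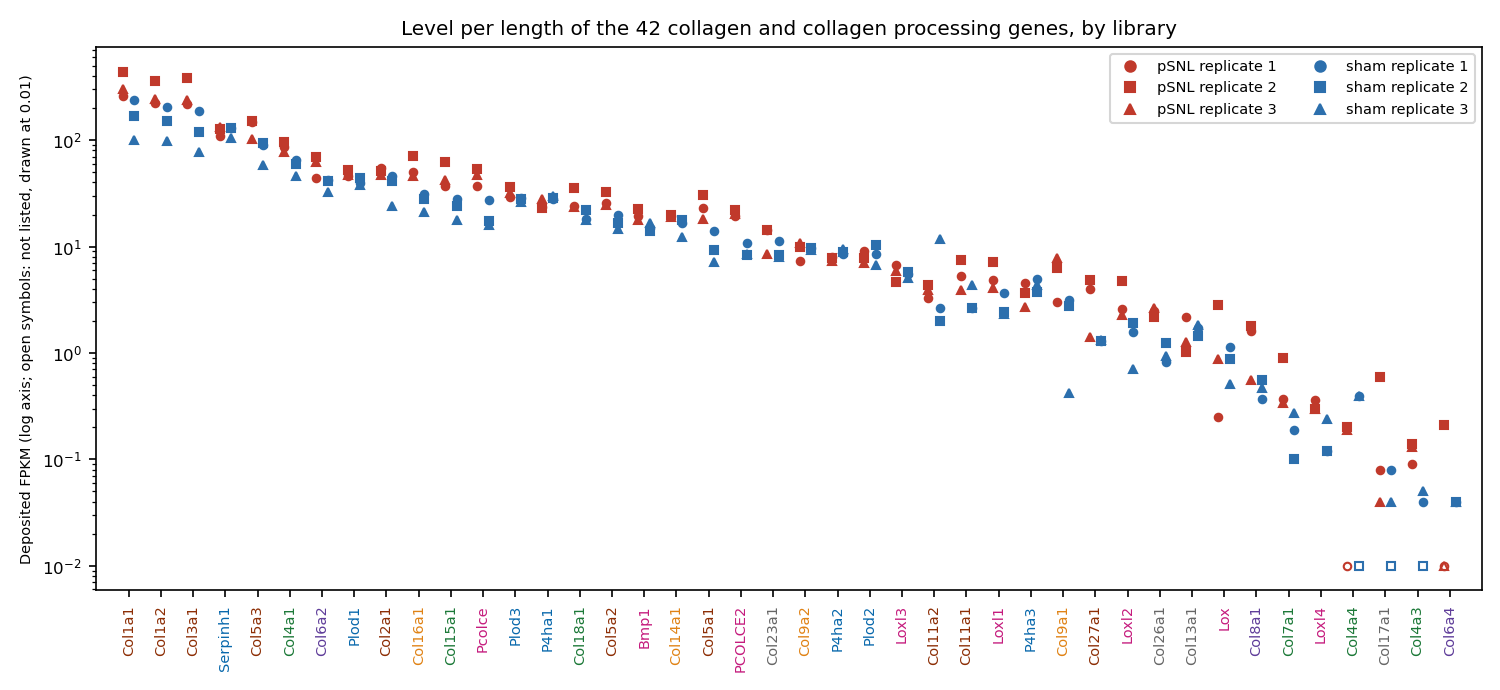
Deposited FPKM on a log axis for each of the 42 genes, ordered by mean over the 6 libraries, with pSNL libraries left and sham libraries right of each position and gene names coloured by role as in the plot of fold changes. Col1a1, Col1a2 and Col3a1 lead, Serpinh1 follows with overlapping groups, and Col4a4, Col17a1, Col4a3 and Col6a4 are at the low end.

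By mean FPKM over all 6 libraries the order was Col1a1, Col1a2, Col3a1, Serpinh1, Col5a3 and Col4a1. Col1a1 averaged 335 ± 92.9 FPKM in pSNL and 170 ± 69.8 FPKM in sham (SD, n = 3 each), Col1a2 277 ± 74.0 and 152 ± 53.8 FPKM, and Col3a1 281 ± 88.9 and 128 ± 55.1 FPKM. These neighbours in the order differed by less than their spread. Serpinh1 was at 124 ± 12.4 FPKM in pSNL and 122 ± 14.3 FPKM in sham, Col5a3 at 134 ± 27.3 and 81.0 ± 19.1 FPKM and Col4a1 at 86.5 ± 9.25 and 57.3 ± 9.72 FPKM. In pSNL alone Col3a1 averaged above Col1a2 and Col5a3 above Serpinh1, each by less than the spread. The remaining 36 genes averaged under 60 FPKM in either group.

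All 42 genes together took 0.746%, 1.06% and 0.762% of the counts in pSNL replicates 1 to 3, against 0.62%, 0.507% and 0.366% in sham replicates 1 to 3. The 95% Wilson intervals ran from 0.738 to 0.754%, 1.05 to 1.07% and 0.754 to 0.77% in pSNL and from 0.613 to 0.627%, 0.501 to 0.514% and 0.36 to 0.372% in sham; they cover counting error only. The sham intervals did not overlap each other, nor did that of pSNL replicate 2 overlap another, while those of pSNL replicates 1 and 3 nearly touched. In CPM the sum was 7366, 10679 and 7720 in pSNL, against 6271, 5131 and 3624 in sham, or 1.71 times higher on average. Without Col1a1, Col1a2 and Col3a1 it was 3781, 4564 and 3591 CPM in pSNL, against 2966, 2848 and 2214 CPM in sham, 1.49 times higher.

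The library with the lowest and the highest level was counted for each gene. Sham replicate 3 was the lowest of the 6 libraries for 23 of the 35 tested genes, against 20.7% of all tested genes, and pSNL replicate 2 was the highest for 23, against 22% of all tested genes. Within the sham group, the highest library exceeded the lowest by a median of 1.47-fold over the 35 genes, beside 1.23-fold over all tested genes. Within the pSNL group the medians were 1.49-fold and 1.26-fold.

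Marker lists of the cell types a ganglion holds were summed in the same libraries. Of 17 fibroblast and connective tissue markers outside the 42 genes, 16 were listed, none of them at 0 throughout, and 15 were tested. Mgp and Bgn rose and the other 13 did not pass the threshold, where 0.442% of all tested genes rose. Fold changes were above 0 for 14 of 15, against 49.4% of all tested genes, and the median of their log2 values was 0.71. Their summed level was 6515, 7416 and 7597 CPM in pSNL, against 5995, 5670 and 5300 CPM in sham. Most of this sum was Sparc and Thy1, and Thy1 is also in the list of neuronal genes. Sparc was at 2942 ± 356 CPM in pSNL and 2389 ± 243 CPM in sham (SD, n = 3 each). Thy1 was at 1803 ± 206 CPM in pSNL and 1933 ± 128 CPM in sham. Perineurial markers (7 listed) summed to 870, 1114 and 887 CPM in pSNL, against 733, 653 and 636 CPM in sham. Most of this sum was Itgb4, at 712, 899 and 676 CPM in pSNL, against 544, 494 and 376 CPM in sham. Of the 5 perineurial markers tested edgeR called none, and fold changes were above 0 for 3 and below 0 for 2. Krt19, among the 3 above 0, was over the filter on low counts in the pSNL libraries alone. The test of Krt19 thus depends on the group where it is higher. Macrophage markers (12 listed) summed to 324, 541 and 549 CPM in pSNL, against 203, 187 and 249 CPM in sham. EdgeR called none of the 12, and DESeq2 called 5 higher, against 2.17% of all genes. Fold changes were above 0 for 11 of the 12, against 49.4% of all tested genes, with a median log2 value of 1.21. Before adjustment 8 were higher at an edgeR p under 0.05, against 9.41% of all tested genes. Itgam and Cd68 were over the filter on low counts in every pSNL library but not in every sham library. Endothelial markers (12 listed) did not separate, at 320, 284 and 324 CPM in pSNL, against 302, 303 and 375 CPM in sham. Pericyte and smooth muscle markers (10 listed) were at 781, 851 and 780 CPM in pSNL, against 728, 751 and 665 CPM in sham, so pSNL lay just above sham. Satellite glia markers (9 listed) summed to 5357, 5170 and 6235 CPM in pSNL, against 6443, 6891 and 6747 CPM in sham. Most of this sum was Apoe, at 4697, 4421 and 5570 CPM in pSNL, against 5784, 6243 and 5306 CPM in sham. Fold changes were above 0 for 3 of the 9, against 49.4% of all tested genes, and edgeR called none. Glul, Gja1 and Slc1a3 were highest in sham replicate 3, the library with the high central glia genes. The part of these cells in the collagen levels was not tested.

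**Figure D4:**
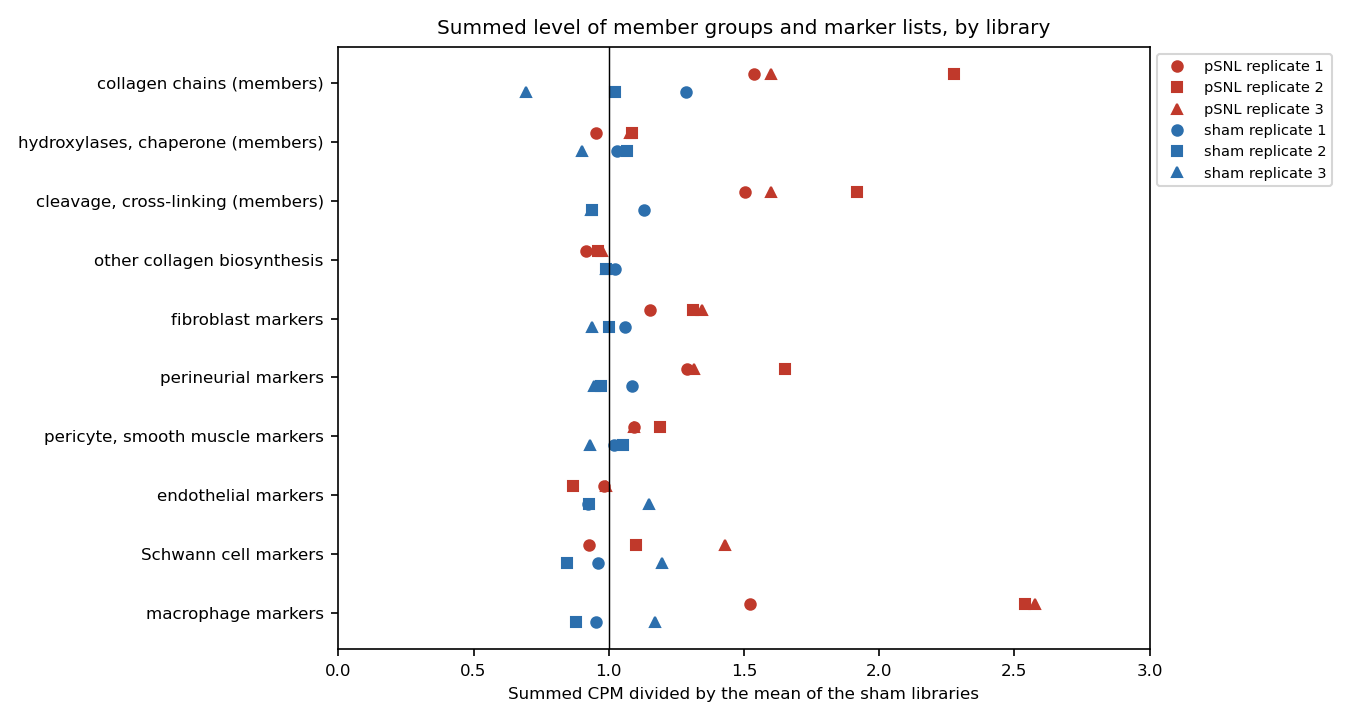
The x axis is the CPM summed over each group of genes divided by the mean of the sham libraries, with pSNL points above sham points in each row. Collagen chains and the cleavage and cross-linking genes separate the groups, as do fibroblast, perineurial and macrophage markers, while the hydroxylases with the chaperone, endothelial and Schwann cell markers overlap. The perineurial sum is mostly Itgb4, and the fibroblast sum is mostly Sparc and Thy1.

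Other genes of collagen synthesis and turnover were read from lists. Over all tested genes 0.442% rose in edgeR, and before adjustment 9.41% were higher and 6.07% lower at a p under 0.05. Of 23 tested further genes of collagen biosynthesis edgeR called none (3 were under 0.05 before adjustment, while DESeq2 called 1 higher and 1 lower), and their median log2 fold change was 0.07. Adamts2, the procollagen N-proteinase, was at 16.3, 27.7 and 19.5 CPM in pSNL, against 9.86, 9.87 and 7.81 CPM in sham (log2 fold change 1.20 ± 0.23, edgeR adjusted p = 0.0576). Hspa5, the general chaperone BiP, was at 411, 462 and 475 CPM in pSNL, against 599, 540 and 589 CPM in sham (log2 fold change -0.36 ± 0.09, edgeR adjusted p = 0.0976). P3h1, a prolyl 3-hydroxylase, had a log2 fold change of 0.42 ± 0.15 (edgeR adjusted p = 0.212).

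Of 17 tested regulators of collagen fibrils 1 rose, the small proteoglycan biglycan (Bgn), at 127 ± 10.9 CPM in pSNL and 80.6 ± 5.29 CPM in sham (SD, n = 3 each; edgeR adjusted p = 0.0249), and the list had a median log2 fold change of 0.57. Fibronectin (Fn1), on which collagen fibrils assemble, and lumican (Lum), which limits their width, had log2 fold changes of 0.99 ± 0.18 and 0.92 ± 0.18 (edgeR adjusted p = 0.0576 and 0.0662). This list and the fibroblast list share 6 genes, 30% of the first and 35.3% of the second. Of 15 tested genes of collagen breakdown and uptake 1 rose, the metalloprotease inhibitor Timp1, at 78.0 ± 12.5 CPM in pSNL and 40.5 ± 4.47 CPM in sham (edgeR adjusted p = 0.0226). The collagenase Mmp13 was at 0.45, 0.46 and 0.46 CPM in pSNL, against 8.25, 3.21 and 2.30 CPM in sham, lower in every pSNL library. Mmp13 was over the filter on low counts in the sham libraries alone, so a gene this low in pSNL was tested only because sham was higher, and its adjusted p of 0.0639 (edgeR) carries that limit. Mmp16, a membrane-bound metalloprotease, had a log2 fold change of 1.11 ± 0.27 (edgeR adjusted p = 0.0967).

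Of 8 tested collagen receptors edgeR called none (3 were under 0.05 before adjustment, while DESeq2 called 2). The smallest p belonged to Itgb1, the common chain of collagen-binding integrins, at 538, 700 and 637 CPM in pSNL, against 505, 496 and 400 CPM in sham (edgeR adjusted p = 0.141). Cd44 and Mrc1 had log2 fold changes of 0.69 ± 0.18 and 0.57 ± 0.22 (edgeR adjusted p = 0.142 and 0.244). Of 19 tested inducers of collagen genes and their targets 1 rose, Tgfbi, a matrix protein induced by TGF-β, at 139, 223 and 157 CPM in pSNL, against 84.4, 75.3 and 67.8 CPM in sham (log2 fold change 1.19 ± 0.18, edgeR adjusted p = 0.0361). Il13ra1 and Prrx1 had log2 fold changes of 0.77 ± 0.22 and 1.30 ± 0.45 (edgeR adjusted p = 0.165 and 0.209). Prrx1 was at 2.72, 3.93 and 2.52 CPM in pSNL, against 0.69, 1.38 and 1.61 CPM in sham, and was over the filter in the pSNL libraries alone, so its test carries the same limit as that of Mmp13. Of the 6 fits with 1 library left out, Bgn, Timp1 and Tgfbi each kept the call in 2 and Mgp in 4, with adjusted p up to 0.158, 0.13, 0.201 and 0.13. All 4 were lost without sham replicate 2. Bgn, Timp1 and Tgfbi were lost without sham replicate 1 or 3 as well, Bgn, Timp1 and Mgp without pSNL replicate 2, and Tgfbi without pSNL replicate 3.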

How the data were processed

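RNA of 6 libraries was analysed, 3 pSNL and 3 sham, grouped by the sample titles. Per the labels' protocols, frozen ganglia gave Trizol RNA; the labels name both a BGI library kit and Illumina protocols, so the sequencer is uncertain. CASAVA 1.4 and Bowtie2 are named in the submitters' processing notes; no source used here gives the quantifier, genome build, annotation or use of strand. Per the file headers, each gene has a length and 2 measures made by the authors, the deposited expected count and the deposited FPKM; 89.1% to 89.5% of the expected counts were whole. Genes that a file does not list were set to 0. Depth was 4310643 to 4416121 counts per library, so counting error is large for genes at a few CPM.

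Symbols came from a RefSeq table of GRCr8, used for names only, 14227 by gene ID and 16 by transcript accession, with 103 kept by ID. Expected counts were rounded and fitted in edgeR 4.0.16 (R 4.3.3) with TMM factors, its default filter on low counts (about 2.28 CPM in 3 libraries), a robust quasi-likelihood F test and Benjamini-Hochberg adjustment over 11091 genes. DESeq2 1.42.0, limma 3.58.1 on log2(FPKM + 0.1) and log2(FPKM + 1), RLE factors, no TMM factor, no filter, a replicate block and fits without single libraries were alternatives. The fit was tested on simulated data. Standard errors were derived from the test statistic, and no 2 libraries agreed within sampling noise.

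The members and all lists were chosen with earlier results of these data known. Named in full were members past the threshold, the 3 with the smallest p and the 2 with the highest FPKM in each role, and the Col1a1 to Col1a2 and Col5a1 to Col5a2 FPKM ratios; ratios with Col4a2, Col6a1 and Col6a3 were not made, as these chains are not analysed here. Col3a1, Col5a3, Col2a1, Col11a2, Col18a1 and other members outside this rule were named after their values were seen.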

Additional observations from a re-analysis of the deposited data

How the results depend on the processing

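The number of genes past the threshold over the whole table was 51, and it moved beyond 1.5 times with DESeq2 (332), with no filter on low counts (89), with the replicate number as a block (111) and without both replicate 3 libraries together (102); with 1 library left out it ran from 5 to 217. The number of members past the threshold was 1 (PCOLCE2) and was 10 with DESeq2, 4 with the replicate block and 4 without both replicate 3 libraries; with 1 library left out it ran from 0 to 3. With the block, Col16a1, Col4a1 and Col5a3 joined PCOLCE2, but same-numbered libraries deviated together with correlations of only 0.032, 0.011 and 0.123, and not every library correlated best with its own number, so the numbers were not taken to pair libraries. The median log2 fold change of the tested members (0.588) lay between 0.497 and 0.704 with 1 library left out. The summed level of the members was 1.71 times higher in pSNL and 1.51 to 1.96 times with 1 library left out, and the Col1a1 to Col1a2 ratio of pSNL over sham was 1.10 and ran from 1.06 to 1.13. Among the named members' fold changes, 300 values under an alternative kept direction and side of the threshold, 15 newly passed it, 2 no longer passed it and 5 changed sign. Those that changed sign were Col13a1 without pSNL replicate 2 (0.044) and Serpinh1 without pSNL replicate 2 (-0.009), without pSNL replicate 3 (-0.052), without sham replicate 3 (-0.088) and without both replicate 3 libraries (-0.155), all far from the threshold; with 1 library left out, Col13a1 ran from -0.511 to 0.044 and Serpinh1 from -0.088 to 0.111. The causes were not tested. At this depth Lox, Loxl4, Col4a3, Col4a4, Col6a4, Col8a1 and Col17a1 were too low to test.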
